A study of Mus musculus with 4 samples.

Results

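T cells with a long TRB CDR3 loop were examined in 4 single-cell T cell receptor libraries made from pancreatic islets of mice. A called cell belonged to this class when it carried exactly 1 TRB chain and at least 1 TRA chain among its high-confidence, full-length, productive contigs, and when the CDR3 of that TRB chain, counted from its first cysteine to its last phenylalanine, had 16 or more residues. The rule took 1355 of 11035 cells with such a receptor pair, out of 13345 called cells. They fell into 989 of 7179 clonotypes, a clonotype being a set of cells of 1 library with the same V segment, J segment and CDR3 nucleotides in both chains. The comparison class held the 7671 cells, in 5102 clonotypes, whose TRB CDR3 had 13 to 15 residues.

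The libraries came from NOD mice, a strain that develops autoimmune diabetes (2 libraries, NOD 1 and NOD 2), and from Tet2KO NOD mice, which carry a germline Tet2-/- deletion bred onto the NOD background for over 14 generations (2 libraries, Tet2KO NOD 1 and Tet2KO NOD 2). Tet2 encodes an enzyme that oxidises methylated cytosine in DNA. No Tet2 transcript is read in receptor libraries, so the genotype labels could not be checked here. Each library was made from islets pooled from 4 to 6 mice. Islets were taken at 10 to 13 weeks, an age according to the design text, but a time after an event abbreviated as BTM according to the labels' protocol, which also mentions bone marrow donors. Which of these applies to each library could not be settled. As the mice were pooled, the library, not the cell, was the replicate. With 2 pools per genotype, p-values between genotypes measure the spread between these pools. Those between length classes compare parts of the same library and measure how the difference varies over the 4 libraries, beside counting error. In the edgeR fits of length class, the estimated variation beyond counting was small for segments (common dispersion 0.00509). For residues the estimate was 9.77e-05, the same value as in the later fit of class by genotype. It may thus be a lower limit of the estimate and not a measured spread.

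The TRB chain is the heavy, D-containing chain of the alpha beta T cell receptor. Its CDR3 loop, the part of the chain that most often touches the peptide presented by an MHC molecule, is put together in the thymus by joining a V, a D and a J segment, with nucleotides trimmed from the ends and non-templated nucleotides added between them. The length of the loop is thus the sum of what each segment keeps and what is added, and V, J and D use cannot be independent of length. The TRB locus has 2 D segments, each followed by its own cluster of J segments; TRBD1 can join either cluster, while TRBD2 lies downstream of the TRBJ1 cluster and joins TRBJ2 segments.

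The receptors that carry the most cells show what a long loop is made of. In the sequences that follow, lower-case nucleotides match the end of the germline V or the start of the germline J segment (GRCm38), and capitals mark the middle stretch that matches neither. The 4 long clonotypes with the most cells in each library were these:
NOD 1, TRBV5 with TRBJ2-3: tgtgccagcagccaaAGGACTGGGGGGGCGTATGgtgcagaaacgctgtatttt
NOD 2, TRBV31 with TRBJ2-1: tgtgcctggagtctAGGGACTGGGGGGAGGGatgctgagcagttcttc
Tet2KO NOD 1, TRBV19 with TRBJ2-4: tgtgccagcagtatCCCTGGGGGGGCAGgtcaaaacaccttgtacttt
Tet2KO NOD 2, TRBV16 with TRBJ2-5: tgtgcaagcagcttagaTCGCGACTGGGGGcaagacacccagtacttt

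The longest loop in the series, of 21 residues, was a single cell of Tet2KO NOD 1, and the clonotype of 14 residues with the most cells, from NOD 1, is shown for contrast:
Tet2KO NOD 1, TRBV5 with TRBJ2-4: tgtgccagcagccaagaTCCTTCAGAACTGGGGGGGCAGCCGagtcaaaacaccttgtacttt
NOD 1, TRBV16 with TRBJ1-4: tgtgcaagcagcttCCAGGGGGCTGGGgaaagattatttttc

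The germline D segments lie on chromosome 6, plus strand, of GRCm38, TRBD1 at chr6:41533201-41533212 and TRBD2 at chr6:41542163-41542176:
TRBD1: GGGACAGGGGGC
TRBD2: GGGACTGGGGGGGC

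The middle stretch of the NOD 1 receptor holds a run of 13 nucleotides of TRBD2, that of the NOD 2 receptor a run of 12, and that of the Tet2KO NOD 1 receptor of 16 residues a run of 10. The Tet2KO NOD 2 receptor holds a TRBD2 run of 9 and a TRBD1 run of 5, although the deposited annotation names its D segment TRBD1. The receptor of 14 residues holds 8 nucleotides of TRBD1. The middle stretch was 19 nucleotides long in the NOD 1 receptor, 25 in the receptor of 21 residues and 13 in the receptor of 14 residues.

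Long loops made up a similar share of each library. They were 14.0% of the clonotypes in NOD 1 (95% Wilson interval 12.9% to 15.2%), 13.8% in NOD 2 (12.2% to 15.49%), 12.4% in Tet2KO NOD 1 (10.4% to 14.7%) and 14.3% in Tet2KO NOD 2 (12.3% to 16.6%). The intervals cover counting error only. The Tet2KO NOD libraries lay on either side of the NOD libraries, and the difference between genotypes, Tet2KO NOD minus NOD, was -0.555 percentage points (13.9% ± 0.170 against 13.3% ± 1.38, SD, n = 2 each; two-sided exact permutation p = 1, where 0.33 is the smallest p the design allows). By cells the share was 12.3%, 12.6%, 10.6% and 13.7% in the same order. The difference changed sign without Tet2KO NOD 1, to 0.421, so its direction rests on that library.

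**Figure D1:**
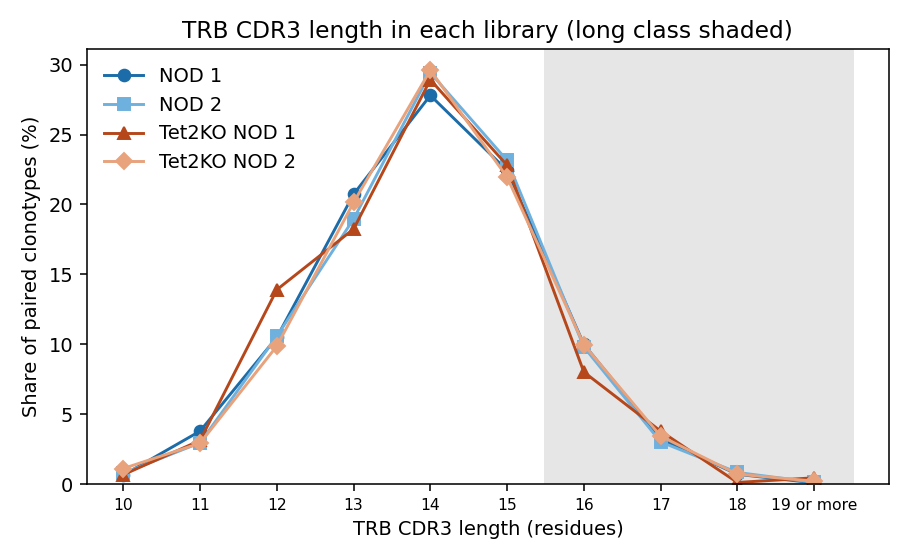
Share of paired clonotypes (%, vertical axis) at each TRB CDR3 length in residues (horizontal axis), 1 line per library, with lengths of 16 or more shaded and lengths under 10 not drawn. All 4 libraries have their highest share at 14 residues, and the share drops from 22.0% to 23.2% at 15 residues to 8.01% to 9.99% at 16.

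The class was dominated by loops just past its lower limit. Of the 989 clonotypes, 696 had 16 residues, 235 had 17, 47 had 18 and 11 had 19 or more, and 1621 clonotypes lay just outside the limit at 15. At 15 residues TRBJ2-3 was used by 15.3% of clonotypes, TRBJ2-7 by 14.8%, and TRBD2 was named in 11.04%; at 16 residues the values were 23.1%, 8.05% and 19.97%. TRBJ2-3 did not go on to higher shares in every library: in Tet2KO NOD 2 it was at 21.6% at 15 residues, 16.2% at 16 and 14.7% at 17, and in Tet2KO NOD 1 it was at 26.4% at 16 and 20.6% at 17, each from 34 clonotypes at 17 residues.

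**Figure D2:**
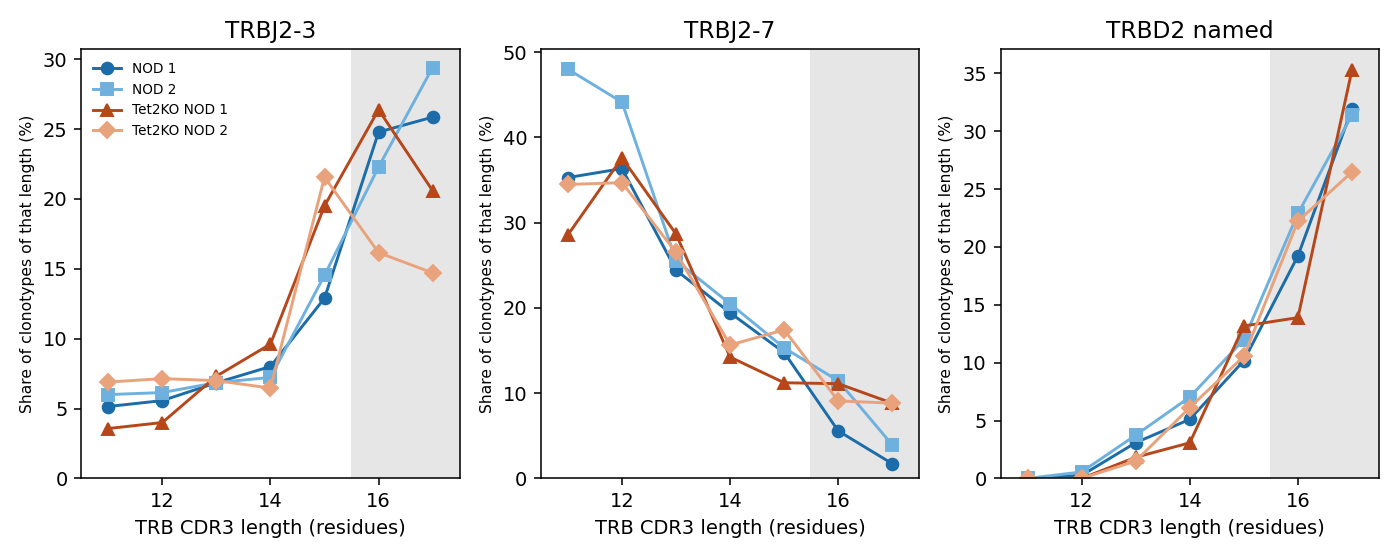
Share of the clonotypes of each TRB CDR3 length (residues, horizontal axis) that use TRBJ2-3, use TRBJ2-7 or carry a TRBD2 name (%, vertical axis), 1 line per library, with the long class shaded. Over all libraries TRBJ2-3 goes from 5.65% at 12 residues to 24.3% at 17, TRBJ2-7 from 38.1% to 4.26%, and TRBD2 from 0.257% to 31.5%; among the lengths drawn, TRBJ2-3 is highest at 15 residues in Tet2KO NOD 2.

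Segment use was then compared between the classes within each library, on counts of clonotypes, with edgeR's quasi-likelihood test in a model with a term for the library. Of 92 V, D and J segments tested, 17 passed an adjusted p of 0.05 (Benjamini-Hochberg over all 92), which is 18.5%; 9 were more frequent in the long class (9.78%) and 8 less frequent (8.7%). By kind of segment, 8 of 18 TRBV, 6 of 12 TRBJ and 1 of 2 TRBD segments passed, against 0 of 28 TRAV and 2 of 32 TRAJ segments. No TRAV segment had an unadjusted p under 0.05 and 4 TRAJ segments did. Without NOD 1, the deepest library, 64 segments could be tested and 11 passed, 10 of them among the 17. DESeq2 called 7 segments, all among the 17.

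**Figure D3:**
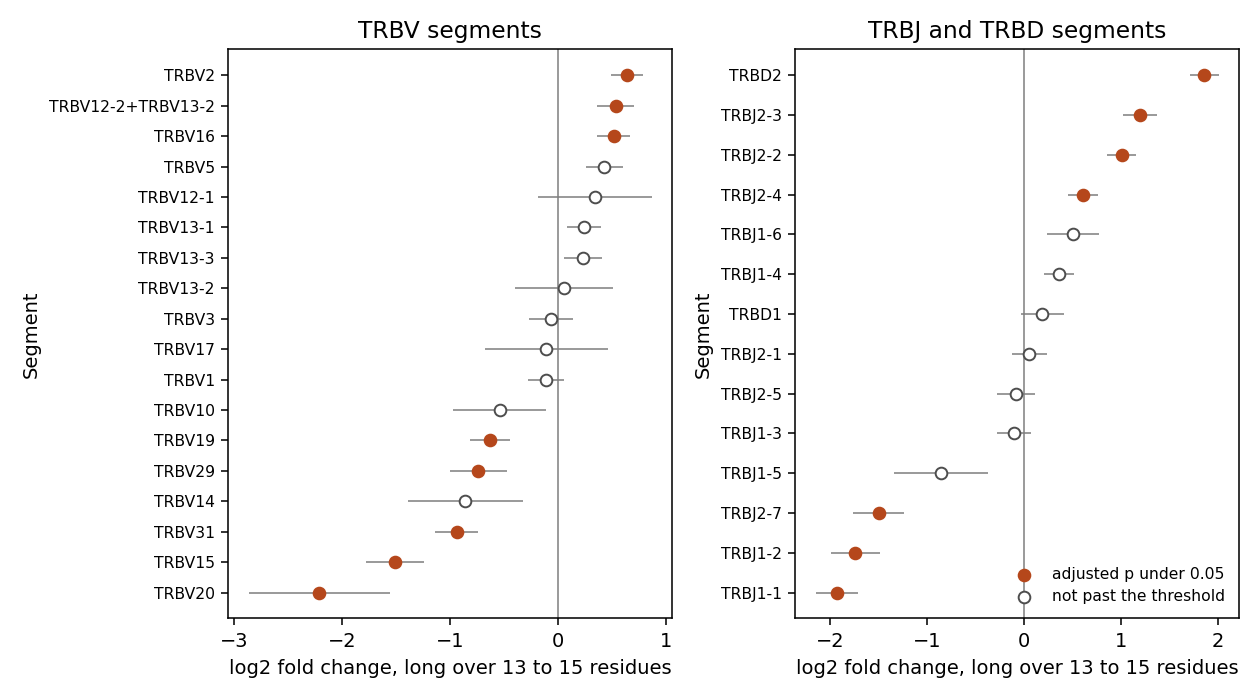
Log2 fold change of each tested TRBV (left), TRBJ and TRBD segment (right), long class over 13 to 15 residues, horizontal axis, with bars of 1 approximate standard error from the edgeR fit; filled points passed an adjusted p of 0.05. TRBD2 (1.86) and TRBJ2-3 (1.20) lie farthest to the right and TRBV20 (-2.21) and TRBJ1-1 (-1.93) farthest to the left.

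The D segments gave the largest difference upwards. TRBD2 was named in 22.5%, 25.8%, 23.4% and 24.7% of the long clonotypes of NOD 1, NOD 2, Tet2KO NOD 1 and Tet2KO NOD 2, against 6.12%, 7.76%, 6.04% and 6.18% of the clonotypes of 13 to 15 residues. The classes did not overlap in any library, and the log2 fold change was 1.86 ± 0.15 (SE; edgeR adjusted p = 1.95e-26). TRBD1 was named in 19.3% ± 3.17 (SD, n = 4) of long clonotypes and 16.5% ± 0.859 of the others and did not pass (log2 fold change 0.19 ± 0.22, edgeR adjusted p = 0.823).

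A D name is itself tied to length, because a D segment is named from the bases it leaves in the middle stretch. Some D name was given to 43.4% ± 2.24 (SD, n = 4) of long clonotypes and to 23.0% ± 1.297 of those of 13 to 15 residues. The D names were also compared only among TRBJ2 clonotypes that had a D name, which does not remove this tie. There TRBD2 held 69.3%, 74.1%, 70.3% and 70.0% in the long class and 39.95%, 45.3%, 37.0% and 38.2% in the comparison class. The long class was higher in 4 of 4 libraries, by 30.8 percentage points ± 2.11 (SD, n = 4; two-sided exact sign-flip permutation p = 0.13, the smallest that 4 libraries allow). Of the TRBJ2 clonotypes named TRBD1, 27.4% of the long and 17.9% of the others held a longer run of TRBD2 than of TRBD1. Scored by the longer run over all TRBJ2 clonotypes whose runs differed in length, with or without a D name, TRBD2 held 79.1% in the long class and 54.7% in the other, a difference of 24.4 points, higher in 4 of 4 libraries. That set is wider than the clonotypes with a D name, so this value and the one by name differ in both scoring and set. TRBD2 has 14 nucleotides and TRBD1 has 12, and at 12 residues TRBD2 was named in 0.257% of clonotypes and TRBD1 in 6.675%. A longer middle stretch also leaves more room for a run of either. Neither comparison, nor the p-value given with the first, can therefore separate the choice of D segment from loop length.

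Among clonotypes that used a TRBJ1 segment, which TRBD1 joins directly, TRBD1 was named in 39.3%, 24.1%, 46.4% and 40% of the long class and in 22.2%, 22.8%, 16.6% and 21.4% of the comparison class. The long class was higher in 4 of 4 libraries, though by only 1.32 points in NOD 2 (mean difference 16.7 points ± 11.7, SD, n = 4; exact sign-flip permutation p = 0.13). In the fit restricted to TRBJ1 clonotypes TRBD1 passed, with a log2 fold change of 0.77 ± 0.15 (SE, edgeR adjusted p = 0.000668). The tie between a D name and length holds here too, as a name needs D bases left in the middle stretch. These values describe how often TRBD1 could be named, and neither p-value can separate D use from loop length.

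The TRBJ2 cluster as a whole supplied 75.03% ± 1.51 (SD, n = 4) of long clonotypes and 66.1% ± 1.93 of those of 13 to 15 residues, and was higher in 4 of 4 libraries. Of its 6 segments, 3 were more frequent and 1 less frequent in the long class, with a median log2 fold change of 0.33, beside -0.05 over all 92 segments. TRBJ2-3 was the J segment of 24.9%, 23.2%, 23.4% and 16.9% of long clonotypes and of 9.22%, 9.50%, 12.2% and 11.2% of the others. Every long value lay above every comparison value (log2 fold change 1.20 ± 0.17, SE; edgeR adjusted p = 1.21e-09). TRBJ2-2 was used by 10.9%, 7.30%, 7.21% and 12.0% against 4.86%, 4.79%, 5.41% and 4.49%, again without overlap (1.01 ± 0.15; edgeR adjusted p = 4.8e-07). TRBJ2-4 was used by 12.0% ± 2.96 against 7.73% ± 0.923 (0.61 ± 0.15; edgeR adjusted p = 0.00156), but no longer passed without NOD 1 (0.56, edgeR adjusted p = 0.0805). Within TRBJ2 clonotypes alone, TRBJ2-3 (0.99 ± 0.16; edgeR adjusted p = 6.08e-08) and TRBJ2-2 (0.80 ± 0.19; edgeR adjusted p = 0.000499) passed and TRBJ2-4 did not (0.42, edgeR adjusted p = 0.119).

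TRBJ2-7 went the other way. It was the most used J segment of the comparison class, at 19.4%, 20.2%, 17.01% and 19.2%, but was used by 4.37%, 9.01%, 9.91% and 8.45% of long clonotypes. Its log2 fold change was -1.50 ± 0.26 (SE; edgeR adjusted p = 4.8e-07), and NOD 1 had the lowest long value. TRBJ2-1 (0.06) and TRBJ2-5 (-0.08) did not pass.

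Of the 6 TRBJ1 segments, 2 were less frequent in the long class and none more frequent, with a median log2 fold change of -0.48. TRBJ1-1 was used by 2.98%, 2.15%, 1.802% and 1.41% of long clonotypes, 24 in all, against 9.18%, 8.92%, 9.06% and 10.4% of the others (log2 fold change -1.93 ± 0.22, SE; edgeR adjusted p = 1.13e-13). TRBJ1-2 was used by 17 long clonotypes, 1.68% ± 0.184 (SD, n = 4) against 6.01% ± 0.684 (-1.74 ± 0.25; edgeR adjusted p = 1.07e-07). TRBJ1-3 (-0.11), TRBJ1-4 (0.37), TRBJ1-5 (-0.86) and TRBJ1-6 (0.51) did not pass. Within TRBJ1 clonotypes alone, where the smaller size of the cluster in the long class no longer enters, TRBJ1-4 (0.80 ± 0.12; edgeR adjusted p = 8.71e-05) and TRBJ1-6 (0.95 ± 0.19; edgeR adjusted p = 0.00156) were more frequent in the long class, and TRBJ1-1 and TRBJ1-2 stayed less frequent.

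The J segments differ in how many nucleotides of CDR3 they encode before trimming, from 19 to 25. TRBJ2-7 encodes the fewest, 19, and TRBJ1-1 and TRBJ1-2 encode 20; TRBJ1-6 encodes 25 and TRBJ2-2 and TRBJ1-4 encode 23. Across the 12 TRBJ segments germline length and log2 fold change had a Pearson r of 0.631, given as a description, since segments of 1 locus share the same clonotypes. TRBJ2-3, TRBJ2-4 and TRBJ2-5 all encode 21 nucleotides, and their log2 fold changes were 1.20, 0.61 and -0.08. The germline CDR3 part of TRBJ2-3, at chr6:41543223-41543271, and of TRBJ2-7, at chr6:41543810-41543856, both on the plus strand, read as follows:
TRBJ2-3: AGTGCAGAAACGCTGTATTTT
TRBJ2-7: CTCCTATGAACAGTACTTC

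Among the V segments, 3 were more frequent in the long class. TRBV2 was used by 10.9%, 9.44%, 5.41% and 5.63% of long clonotypes and by 6.51%, 6.11%, 5.41% and 3.79% of the others (log2 fold change 0.64 ± 0.15, SE; edgeR adjusted p = 0.00349); it was higher in 3 libraries and equal, to the digits given, in Tet2KO NOD 1. The segment listed as TRBV12-2+TRBV13-2, a joint name in the deposited annotation, had the highest mean share of the long class (15.9%, against 15.8% for TRBV5, which was higher in NOD 2 and Tet2KO NOD 1), at 14.9%, 12.5%, 14.4% and 21.8% against 11.4%, 9.83%, 12.2% and 8.01% (0.53 ± 0.17; edgeR adjusted p = 0.0134). It no longer passed without Tet2KO NOD 2, where its long value was highest (0.35, edgeR adjusted p = 0.149). Clonotypes listed as TRBV13-2 alone, for which the same germline end was used, did not pass. They made up 2.96% of the long class against 2.41% (log2 fold change 0.05, edgeR adjusted p = 0.961). TRBV16 was used by 10.3%, 9.01%, 8.11% and 8.45% against 6.51%, 5.95%, 7.63% and 7.30% (0.52 ± 0.15; edgeR adjusted p = 0.0159), and lost its call without NOD 1 (0.36, edgeR adjusted p = 0.503), as did TRBV2 (0.49, edgeR adjusted p = 0.291).

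TRBV5, with the next highest mean share, missed the threshold (15.8% ± 3.21 against 10.4% ± 1.06, SD, n = 4; log2 fold change 0.43 ± 0.17, SE, edgeR adjusted p = 0.0612), although it was higher in 4 of 4 libraries, and it passed without NOD 1 (0.64, edgeR adjusted p = 0.04) or without NOD 2 (0.55, edgeR adjusted p = 0.0245). TRBV13-1 (0.24) and TRBV1 (-0.11), also among the 6 most used, did not pass. The TRBV13 family, with the joint segment, made up 33.4% ± 5.07 of long clonotypes and 26.1% ± 2.05 of the others, and was higher in 3 of 4 libraries; 1 of its 4 tested members passed, beside 18.5% of all 92 segments, and the median log2 fold change was 0.24, beside -0.05.

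The 5 TRBV segments that were less frequent in the long class were TRBV20, TRBV15, TRBV31, TRBV29 and TRBV19. TRBV20 was found in 5, 1, 0 and 0 long clonotypes of NOD 1, NOD 2, Tet2KO NOD 1 and Tet2KO NOD 2, against 142 clonotypes, 2.64% ± 0.291 (SD, n = 4), of the comparison class (log2 fold change -2.21 ± 0.65, SE; edgeR adjusted p = 0.00572). The zeros allow a share of up to 2.7% in Tet2KO NOD 1 and 2.11% in Tet2KO NOD 2, where the comparison class was at 2.54% and 2.39%, so Tet2KO NOD 1 alone could not have shown the difference at its depth. TRBV15 was used by 1.19%, 2.15%, 3.60% and 1.41% against 4.43%, 5.53%, 5.56% and 5.20% (-1.51 ± 0.27; edgeR adjusted p = 1.18e-05). TRBV31, the V segment that lies downstream of the J clusters on the opposite strand, was used by 3.58%, 3.00%, 2.70% and 4.23% against 6.43%, 6.28%, 7.15% and 7.30% (-0.94 ± 0.20; edgeR adjusted p = 0.000842), but did not pass within TRBJ2 clonotypes alone (-0.50, edgeR adjusted p = 0.28).

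TRBV19 was used by 6.36%, 7.73%, 5.41% and 3.52% against 8.43%, 11.7%, 8.43% and 10.5%, without overlap (-0.63 ± 0.18; edgeR adjusted p = 0.00572), and it too missed the threshold without Tet2KO NOD 2 (edgeR adjusted p = 0.0645). TRBV29 passed narrowly (2.47% ± 1.25 against 4.30% ± 0.241; -0.74 ± 0.26, edgeR adjusted p = 0.0498) and not without NOD 1 (edgeR adjusted p = 0.261), NOD 2 (0.0619) or Tet2KO NOD 2 (0.2). TRBV20 and TRBV31 encode 14 nucleotides of CDR3, the fewest of the V segments that could be read, whereas TRBV15, TRBV2, TRBV5 and TRBV16 all encode 17. Across 17 TRBV segments germline length and log2 fold change had a Pearson r of 0.446, again as a description. The joint TRBV12-2+TRBV13-2 segment and TRBV13-2 entered it separately, with the same germline end.

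V and J segments met in recurrent pairs. The joint TRBV12-2+TRBV13-2 segment with TRBJ2-3 made 41 long clonotypes, 4.15% of the class against 0.862% of the comparison class, with 22, 8, 5 and 6 in the 4 libraries. TRBV13-1 with TRBJ2-3 made 38 (3.84% against 0.980%), with 25 and 9 in the NOD libraries and 2 in each Tet2KO NOD library. The NOD libraries held 503 and 233 long clonotypes and the Tet2KO NOD libraries 111 and 142. Pooled shares of pairs thus weigh the NOD libraries most. TRBV5 with TRBJ2-3 made 28 (2.83% against 1.10%), with 11, 7, 4 and 6. These pairs were ranked by their number in the long class and were not tested.

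The added length lay mostly in the middle of the loop. On average 14.7 nucleotides matched the V segment in long clonotypes and 13.7 in those of 13 to 15 residues, 19.9 against 18.3 matched the J segment, and 14.5 against 10.1 lay between them. The middle stretch thus differed by 4.43 nucleotides ± 0.193 (SD, n = 4), the V part by 0.978 ± 0.116 and the J part by 1.62 ± 0.0924. Each part was larger in the long class in 4 of 4 libraries, which the definition of the class makes likely, so the split is a description without a test. In TRBJ2 clonotypes the longest run of TRBD2 in the middle stretch averaged 8.60 nucleotides in the long class and 6.00 in the other, and runs of 8 or more nucleotides were present in 59.8% ± 3.55 against 26.7% ± 1.05.

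**Figure D4:**
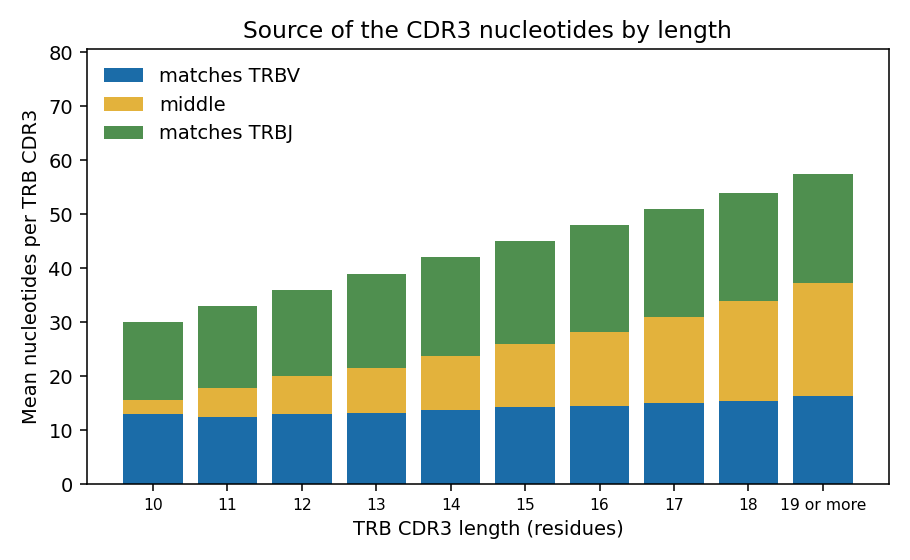
Mean number of TRB CDR3 nucleotides (vertical axis) that match the germline V segment, match the germline J segment or lie between them, for each TRB CDR3 length in residues (horizontal axis), over all libraries. The middle part grows from 2.74 nucleotides at 10 residues to 20.9 at 19 or more, while the V part goes from 12.9 to 16.3 and the J part from 14.4 to 20.4.

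The centre of the loop, taken as all residues but the first 4 and the last 5, had a somewhat different make-up in the long class. With edgeR's quasi-likelihood test on residue counts, 5 of 19 residues passed an adjusted p of 0.05 (26.3%), 2 higher (10.5%) and 3 lower (15.8%). Residues of 1 loop are not independent, so these p-values are approximate. The trim is the same at every length, so the centre is longer in the long class and can still hold V- and J-encoded residues. Differences in the centre, here and in the group and hydropathy values below, are therefore not independent of length or segment use. Alanine made up 9.23%, 9.91%, 8.46% and 9.16% of central residues in the long class and 7.53%, 7.28%, 7.69% and 7.57% in the other, without overlap (log2 fold change 0.31 ± 0.06, SE; edgeR adjusted p = 0.00607). Tryptophan was at 2.92%, 3.15%, 4.72% and 3.82% against 2.49%, 2.58%, 2.29% and 2.57% (0.41 ± 0.12; edgeR adjusted p = 0.0294).

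Asparagine was lower, at 5.25% ± 0.475 against 6.45% ± 0.200 (SD, n = 4; log2 fold change -0.32 ± 0.07, edgeR adjusted p = 0.00607), and lower in 4 of 4 libraries. Isoleucine (-0.55 ± 0.16) and glutamine (-0.21 ± 0.06) had an edgeR adjusted p of 0.0294 each and were lower in 3 of 4. No residue passed without Tet2KO NOD 2, 2 passed without NOD 2 and 3 without NOD 1. The germline end of TRBJ2-3 encodes alanine and reaches into the counted centre. Those of TRBJ1-1 and TRBJ1-2, less frequent in the long class, encode asparagine there, as does that of TRBJ2-2, which was more frequent. So do those of TRBJ1-4, TRBJ1-5, TRBJ1-6, TRBJ2-1 and TRBJ2-5, which did not pass over all clonotypes. Whether J use bears on the residue differences was not tested. Asparagine did not pass in the count of middle codons that follows. When only codons lying wholly between the V and J matches were counted, a choice made after seeing the data, 6 residues passed: alanine (0.42), leucine (0.38), tryptophan (0.35) and proline (0.34) were higher, and glutamine (-0.82) and aspartate (-0.38) were lower.

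Groups of residues were compared by the exact sign-flip permutation test over the 4 libraries, for which 0.13 is the smallest two-sided p; over the 28 measures compared in this way the smallest Benjamini-Hochberg value was 0.175. Serine, threonine, asparagine and glutamine together made up 25.1% ± 0.552 (SD, n = 4) of the centre in the long class and 27.8% ± 0.661 in the other, lower in 4 of 4 libraries (p = 0.13, exact permutation). Alanine, isoleucine, leucine, methionine and valine together made up 18.5% ± 0.544 against 16.99% ± 0.355, and proline 4.57% ± 0.327 against 3.93% ± 0.535, both higher in 4 of 4. Lysine, arginine and histidine together were at 7.32% ± 0.815 against 8.62% ± 0.426, lower in 4 of 4. Glycine (26.3% against 25.2%), the aromatic residues (7.05% against 6.33%) and the acidic residues (11.2% in both) did not move the same way in every library, and cysteine was not among the central residues of either class. Mean hydropathy of the centre, on the Kyte-Doolittle scale where higher values are more hydrophobic, was -0.953, -0.945, -0.930 and -0.919 against -1.05, -1.06, -1.06 and -1.06, a difference of 0.121 ± 0.0179.

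Residue strings that TRBD2 can encode in its 3 reading frames, TGG, LGG and DWG, were counted in the whole loop; TRBD1 as printed can encode TGG too. TGG was present in 15.7%, 15.02%, 7.21% and 14.8% of long loops against 4.94%, 4.87%, 5.25% and 5.06% of the others. LGG was present in 11.2% ± 1.54 (SD, n = 4) against 4.90% ± 0.816, and DWG in 12.1% ± 4.00 against 4.22% ± 0.736. All 3 strings were more frequent in the long class in 4 of 4 libraries. A longer loop has more positions in which a string can occur.

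The alpha chains of the same cells showed little difference. The TRA CDR3 had a mean length of 13.6, 13.6, 13.4 and 13.7 residues in the long class and 13.7, 13.7, 13.7 and 13.6 in the comparison class. The difference of -0.103 residues ± 0.1254 (SD, n = 4) was smaller than its spread and negative in 3 of 4 libraries (exact sign-flip permutation p = 0.25); without Tet2KO NOD 1 it was -0.0528. TRAV16N (7.15% against 5.44%, log2 fold change 0.39), TRAV6N-7 (-0.03), TRAV5-4 (-0.21) and TRAV13-1 (-0.14) were the most used TRAV segments of the class, and none passed. TRAJ50 was used by 5.96%, 3.43%, 3.60% and 7.04% of long clonotypes against 2.82%, 3.47%, 1.59% and 1.97% (0.95 ± 0.27, SE; edgeR adjusted p = 0.00463), and TRAJ26 by 5.17%, 5.15%, 6.31% and 4.93% against 3.37%, 3.14%, 2.70% and 2.95% (0.72 ± 0.24; edgeR adjusted p = 0.0159). TRAJ50 lost its call without NOD 1 (edgeR adjusted p = 0.291) and without Tet2KO NOD 2 (0.0645), and TRAJ26 without NOD 1 (edgeR adjusted p = 0.139), NOD 2 (0.0604) or Tet2KO NOD 1 (0.0515). TRAJ23 (-0.05) and TRAJ31 (-0.06) completed the most used TRAJ segments.

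The TRAV5 family made up 11.4% ± 3.10 of long clonotypes and 12.0% ± 1.14 of the others, with 0 of its 3 tested members called, beside 0 of 28 TRAV segments and 18.5% of all segments. TRAV segments that can also join the delta chain made up 4.81% ± 2.81 against 6.18% ± 0.620. The TRAV16 family joined to TRAJ42 made up 0.608% ± 0.239 against 0.571% ± 0.218. Receptors of other alpha beta T cell types were rare: 3 long clonotypes paired a TRAV11-family segment with TRAJ18, the invariant NKT type, and 1 paired TRAV1 with TRAJ33, the MAIT type. The libraries listed no productive TRG, TRD or immunoglobulin contig. How far these libraries could read such chains is not given, and the class itself requires a TRA and a TRB chain.

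Clones with long loops held fewer cells on average in each library, a difference that the exact sign-flip test over 4 libraries cannot bring past a p of 0.05. Clonotypes of 2 or more cells were 12.1%, 12.0%, 17.1% and 12.0% of the long class and 13.0%, 12.8%, 17.8% and 14.6% of the comparison class. The share was lower in 4 of 4 libraries, by 1.25 percentage points ± 0.927 (SD, n = 4; exact sign-flip permutation p = 0.13), and by 0.788 points without Tet2KO NOD 2 (-0.788 as long minus comparison), the library with the largest difference; the direction turned when only loops of 17 or more residues were counted as long (0.345). Mean clone size was 1.36, 1.34, 1.53 and 1.34 cells against 1.53, 1.40, 1.70 and 1.42. Clonotypes of 10 or more cells were 0.707% ± 0.202 of the long class and 1.36% ± 0.731 of the other, lower in 4 of 4. The largest long clonotypes held 32, 41, 28 and 11 cells, against 76, 34, 31 and 22 in the comparison class, so that in NOD 2 the larger clone was the long one. That clone, the TRBV31 receptor printed above, was 13.2% of the long cells of NOD 2, and the TRBV19 receptor was 16.5% of those of Tet2KO NOD 1. In NOD 1 the comparison clonotype of 76 cells had the same TRB nucleotides as another of 73 cells with a different TRA chain. Only 1 TRA chain was kept per cell, so a clone with several TRA chains can be counted as several clonotypes. Clone sizes in both classes depend on this choice.

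**Figure D5:**
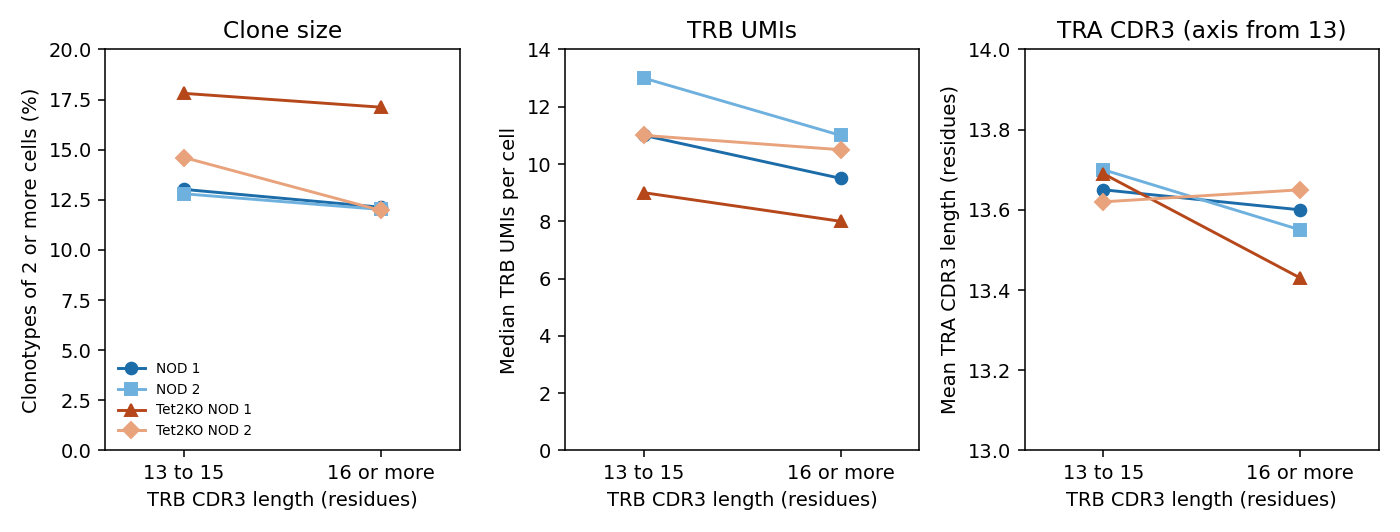
Share of clonotypes with 2 or more cells (%), median TRB UMIs per cell and mean TRA CDR3 length in residues (vertical axes; the last starts at 13) for 13 to 15 residues and for 16 or more, with 1 line per library. The share of larger clonotypes and the TRB UMIs are lower in the long class in all 4 libraries, and the TRA CDR3 length is lower in 3.

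Fewer TRB molecules were read per long cell. The median was 9.5, 11, 8 and 10.5 unique molecular identifiers against 11, 13, 9 and 11, lower in 4 of 4 libraries (exact sign-flip permutation p = 0.13), while the mean over libraries of the TRA median was 5.75 in both classes. By V segment, the cells of all 4 libraries were pooled, although the libraries differ in depth. Among the 16 TRBV segments with at least 20 long cells, the median TRB count was lower in long cells for 9. It was higher for 2 and equal for 5. Large clones weigh in these medians, as 41 of the 84 long TRBV31 cells were the NOD 2 clone printed above. Whether the lower TRB counts bear on the differences in clone size or segment use was not tested.

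Identical long loops were seldom found in more than 1 library. The TRB CDR3 amino acid string of 1.19%, 1.29%, 1.802% and 2.11% of long clonotypes was also present in another library, against 4.31%, 6.52%, 8.90% and 9.83% of the comparison class, lower in 4 of 4. The comparison class had more clonotypes to match, however. Counted per pair of clonotypes from different libraries, 7 of 319169 long pairs matched, a rate of 21.9 in 1000000, and 219 of 8579399 pairs of the comparison class, a rate of 25.5 in 1000000. The 2 rates lay close together, whereas the shares did not, but the long rate rests on 7 matches and is imprecise. By pair of libraries it went from 0 to 35.8 in 1000000, and that of the comparison class from 18.1 to 49.9. Whether the rates differ was not tested.

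Of 961 distinct long strings, 7 were found in 2 libraries and none in more. A TRBV13-1 receptor of NOD 1 and Tet2KO NOD 2 had the same CDR3 amino acids in both chains but different TRB nucleotides, and the same held for a TRBV5 receptor of NOD 1 and Tet2KO NOD 1, each with 16 residues:
NOD 1, TRBV13-1 with TRBJ2-2: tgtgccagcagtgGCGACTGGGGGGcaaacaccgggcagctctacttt
Tet2KO NOD 2, TRBV13-1 with TRBJ2-2: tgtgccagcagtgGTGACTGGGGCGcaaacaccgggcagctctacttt
NOD 1, TRBV5 with TRBJ2-4: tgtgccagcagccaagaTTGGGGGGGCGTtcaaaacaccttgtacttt
Tet2KO NOD 1, TRBV5 with TRBJ2-4: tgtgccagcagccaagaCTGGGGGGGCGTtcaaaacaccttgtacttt

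The alpha chains joined TRAV9-1 to TRAJ43 in the TRBV13-1 receptors and TRAV6N-7 to TRAJ44 in the TRBV5 receptors. Clonotypes identical in all nucleotides were also found: 34 were present in more than 1 library, 2 of them long. Of these, the TRBV31 clone had 41 cells in NOD 2 with a single cell in Tet2KO NOD 2, and a TRBV16 clone with TRBJ2-5 had 3 cells in NOD 1 with 2 in Tet2KO NOD 1. Cell barcodes were shared as well: 81 barcodes were called in more than 1 library, and 20 long cells had such a barcode. No shared barcode carried the same clonotype in both libraries. Clonotypes were known only for the 132 cells with a receptor pair that had such a barcode, so not all 81 barcodes could be compared.

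Within the long class, segment use was compared between genotypes. Of 82 segments tested with edgeR's quasi-likelihood test, 0 passed an adjusted p of 0.05 (0%), 4 had an unadjusted p under 0.05, and DESeq2 called 0, with 1 at an unadjusted p under 0.05. The smallest edgeR adjusted p was 0.765. The shares of the 2 genotypes did not overlap for 24 of the 82 segments, which is 29.3%. In simulated counts on 92 segments this comparison recovered 56% of 4-fold and 11.5% of 2-fold changes, so differences of these smaller sizes were mostly not detectable at this depth.

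The segments without overlap that had the smallest p are given as values. TRBV2 was used by 10.9% and 9.44% of long clonotypes in the NOD libraries and by 5.41% and 5.63% in the Tet2KO NOD libraries (log2 fold change, Tet2KO NOD over NOD, -0.91 ± 0.34, SE), and TRBV13-1 by 11.7% and 10.7% against 7.21% and 5.63% (-0.85 ± 0.33). TRAV7D-4 was found in 9 and 7 long clonotypes of the NOD libraries and in none of 253 of the Tet2KO NOD libraries, which allows a share of up to 1.19%. TRAJ42 was used by 2.19% and 1.29% against 5.41% and 4.93% (1.42 ± 0.68), TRBV5 by 13.1% and 12.9% against 18.02% and 19.01% (0.51 ± 0.24), and TRBV3 by 2.98% and 5.15% against 6.31% and 7.04% (0.86 ± 0.44). All 6 had an edgeR adjusted p of 0.765.

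Whether the differences between long loops and loops of 13 to 15 residues themselves depended on genotype was tested with an interaction term. Of 92 segments 0 passed in edgeR (0%), with 5 at an unadjusted p under 0.05 and a smallest adjusted p of 0.671, and DESeq2 called 0, with 1 at an unadjusted p under 0.05. In simulated counts this term recovered 49% of 4-fold and 6% of 2-fold changes in edgeR. Most 2-fold differences could thus not have been detected. The smallest unadjusted p belonged to TRBV5, whose excess in the long class was larger in the Tet2KO NOD libraries by 0.76 ± 0.25 (log2, SE), and the next to TRBJ2-3, whose excess was smaller there by 0.62 ± 0.23 (-0.62 as fitted). Mean TRB CDR3 length within the long class was 16.35 and 16.36 residues in the NOD libraries and 16.45 and 16.38 in the Tet2KO NOD libraries (exact permutation p = 0.33, the smallest possible).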

How the data were processed

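Single-cell V(D)J contigs were measured in 4 libraries. Per the submitters' processing notes, Cell Ranger 7.0.1 and GRCm38 (mm10) were used; the authors deposited 1 contig table per library, with counts of reads and unique molecular identifiers (UMIs) per contig and the length in nucleotides. The labels' protocol describes nuclei for chromatin libraries; steps specific to the receptor libraries are not given in the sources used here. Reads in listed contigs totalled 85137263 to 220516119 and called cells 1664 to 6835 per library, so NOD 1 gives the most precise shares.

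Contigs were filtered as the report's opening states; where a cell had several TRA chains, the one with the most UMIs was kept. Doublets were not called, but cells with over 1 TRB were left out. Segments were tested with edgeR 4.0.16 (R 4.3.3), quasi-likelihood, with the number of clonotypes as library size, where the 2 classes together had at least 20 clonotypes in at least 2 libraries (genotype comparison: 5 long clonotypes in 2 libraries). Standard errors were taken from the F statistic and are approximate. Other measures used exact sign-flip or permutation tests (Python 3.11.15). DESeq2 1.42.0 was an alternative. The edgeR segment and residue fits were tested on simulated data, DESeq2 was not; the class fit of segments recovered 96.5% of 4-fold and 63% of 2-fold changes among 92 segments.

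V and J ends were matched to the GRCm38 reference, which is C57BL/6 and not NOD, so strain differences count as middle nucleotides. No germline end was found for TRBV10, and its clonotypes have no split. Named segments were all that passed (at most 10 each way), every TRBJ and TRBD, the 6 TRBV, 4 TRAV and 4 TRAJ most used in the class, and for genotype the 3 higher and 3 lower without overlap that had the smallest p. The class and the lists were chosen with earlier results of these data known.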

Additional observations from a re-analysis of the deposited data

Results flagged for a closer look

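The share of cells with more than 1 TRA chain moved in opposite directions in the genotypes. In the NOD libraries it was lower among long cells than among cells of 13 to 15 residues (8.77% against 13.5% in NOD 1 and 10.9% against 13.9% in NOD 2), and in the Tet2KO NOD libraries it was higher (9.41% against 8.52% and 11.1% against 10.5%). The long-minus-comparison difference was 4.6 percentage points higher in the Tet2KO NOD libraries on average. With 2 libraries each, this difference between genotypes was not tested.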

How the results depend on the processing

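The 17 segment calls kept their direction in every alternative in which they were tested, but not all their calls: of all segments tested, 7 passed with DESeq2, 7 in TRBJ2 and 8 in TRBJ1 clonotypes alone, 5 with each cell counted once, and 11 to 17 when a library was left out. Among these, 7, 7, 5 and 5 were of the 17, and 10, 14, 16 and 13 without NOD 1, NOD 2, Tet2KO NOD 1 and Tet2KO NOD 2. TRBD2, TRBJ2-3, TRBJ2-7, TRBJ1-1 and TRBV15 passed in all 15 alternatives in which each was tested. For residues, 3 passed with 17 or more residues counted as long, 1 with each cell counted once, 11 with the first 3 and last 4 residues left out, 11 with the whole string, and 0 to 5 when a library was left out; isoleucine went to 0.0 in middle codons alone, asparagine to 0.04 in the whole string and glutamine to 0.06 with 17 or more residues. The cause of these changes was not tested. Counting loops of 17 or more residues as long turned the expanded share to 0.345 points and the genotype difference in the long share to 0.352; without Tet2KO NOD replicate 1 the latter was 0.421, and its range over left-out libraries was -1.53 to 0.421.

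With the library term left out (no replicate block) 19 segments and 6 residues passed. The NOD and Tet2KO NOD libraries share set numbers, and the set difference correlated at 0.0278 across 82 segments. With 2 sets and counting error in each share, that value cannot show whether the sets were pairs. The set numbers were not taken as pairs. With a replicate block for set, the genotype difference in the long share was -0.555 (exact sign-flip permutation p = 1, smallest possible 0.5) and 0 segments passed.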

Other observations

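A group of alpha chains stood beside long TRBV16 loops and was picked out after its values were seen, so it is a description without a test. It holds 14 clonotypes whose TRAJ32 alpha chain has serine, histidine and any 1 residue directly before the tyrosine-glycine-glycine stretch of TRAJ32. All 14 used TRBV16, 10 used TRBJ2-5, 12 had a TRB CDR3 starting CASSLD, and 11 had a long TRB CDR3. They were found in all 4 libraries (5 in NOD 1, 4 in NOD 2, 2 in Tet2KO NOD 1 and 3 in Tet2KO NOD 2), with 46 cells, and 9 had 2 or more cells. Of the 230 other TRAJ32 clonotypes, 22 used TRBV16 and 25 had a long TRB CDR3; over all clonotypes TRBV16 was at 6.87%, and 19.1% of TRBV16 clonotypes were long.

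The alpha segments in the group were TRAV5-1, TRAV10N and TRAV10D. The TRB CDR3 nucleotides of 3 of its long members have capitals for the middle stretch as in the report. In these 3 all 17 nucleotides of the germline V end were kept, while 2 other long members matched only 11; those 2, in NOD 1 and Tet2KO NOD 1, are the same clone by nucleotides and count as 2 of the 14 because clonotypes were counted per library. The first held 11 cells, the second 8 and the third, of 18 residues, 2:
Tet2KO NOD 2, TRBV16 with TRBJ2-5: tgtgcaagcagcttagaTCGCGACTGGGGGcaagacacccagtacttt
NOD 1, TRBV16 with TRBJ2-5: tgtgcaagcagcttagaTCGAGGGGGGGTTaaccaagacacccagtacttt
NOD 2, TRBV16 with TRBJ2-5: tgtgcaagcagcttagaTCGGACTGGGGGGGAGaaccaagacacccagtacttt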
